A study of Mus musculus with 31 samples.

Results

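Matrix metalloproteinases (MMPs) and the tissue inhibitors of metalloproteinases (TIMPs) were followed in mouse kidney through 9 genes of a table of 55487: Mmp2, Mmp3, Mmp7, Mmp9, Mmp10, Mmp12, Mmp14, Timp1 and Timp3. They were taken by gene symbol, and the rule for taking them uses no measured value, although the list was drawn up with earlier results of these data known. Of the 9 genes, 8 passed the low-count filter that left 19268 genes for testing, and Mmp10 did not. The other 18 MMP and TIMP genes of the table, of which 13 were tested, are given where they complete the family.

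The samples were whole kidneys of male mice on a B6 background, with 1 bulk mRNA library per animal. Their genotype was wild type (WT) or, per the labels, HET for Nbl1, and the sources used here do not give the kind of allele. The Nbl1 protein is secreted and binds bone morphogenetic proteins. From 8 weeks of age the animals received either cisplatin, a DNA-binding chemotherapy agent known for its toxicity to kidney tubules, or phosphate-buffered saline (PBS), for a treatment period given as 4 weeks. Kidneys were taken 3 days after treatment, at a stated age of 11 weeks, although that start and 4 weeks of treatment would give a higher age. The 4 groups were WT PBS (8 libraries), WT cisplatin (8), HET PBS (7) and HET cisplatin (8). The sources used here do not give the cisplatin dose.

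MMPs are zinc-dependent endopeptidases that cleave collagens, laminins and other matrix proteins, and also shed cell-surface proteins. Most are made as inactive proenzymes, and TIMP proteins bind the active site of the mature enzymes. In the kidney these enzymes are known for turnover of the tubular basement membrane and for changes during injury and scarring. Because activity is set by proenzyme cleavage and by inhibitors, a transcript level is not an activity.

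Total counts were 24.65 to 37.3 in units of 1e6 per library. On the first principal component the PBS libraries lay between −62.6 and −51.8 and the cisplatin libraries between 15.9 and 78.9. HET cisplatin 6, at 15.9, and WT cisplatin 6, at 25.2, lay nearest to the PBS libraries. By their Nbl1 and Htr6 reads, 5 libraries go against their genotype label (HET PBS 1 and 6, HET cisplatin 3 and 4, and WT PBS 6), and the labels were kept. Nbl1 was at 0.106 and 0.434 CPM in HET PBS 1 and 6, against 3.26 to 4.2 in the other HET PBS libraries. It was at 1.08 and 0.861 CPM in HET cisplatin 3 and 4, against 4.68 to 13.9 in the others. WT PBS 6 had 22 Htr6 counts, against 0 or 1 in the other WT PBS libraries, and Nbl1 at 3.71 CPM, against 5.83 to 7.9. Animals with numbers in the 600s (22 of 31) make up all 8 HET cisplatin libraries but 6 of 8 WT cisplatin, 4 of 7 HET PBS and 4 of 8 WT PBS libraries, so the number range is partly confounded with the groups. Over all tested genes, 33.6% were called higher and 29.6% lower under cisplatin in WT, and 31% and 28% in HET. Beside these shares, markers of injured tubule cells rose in both genotypes (11 of 11 genes), and markers of proximal tubule fell (10 of 10 genes). Endothelial markers fell in both (8 of 8 genes), and 5 of 7 urothelial markers rose in both. Of 6 loop and distal nephron markers, 4 fell and 1 rose in each genotype, and of 6 podocyte markers WT had 2 called higher and 2 lower, against 3 and 1 in HET. Of 5 tested markers of fat around the kidney, 3 rose in WT and 4 in HET, and the summed level of all 6 listed went from a median of 69.2 to 108 CPM in WT and from 76.9 to 135.5 CPM in HET, with overlapping ranges. The part of adhering fat in the results was not tested. In whole-kidney RNA, fewer cells of a type and less RNA per cell cannot be told apart.

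Promoter regions are shown for 3 genes that rose in both genotypes and for the stromelysins Mmp3 and Mmp10. All come from RefSeq on GRCm38.p6, plus strand, and end at the base before the RefSeq gene start. Such windows were found for 7 of the 9 genes. The windows of Mmp7, Mmp14 and Timp1, which rose in both genotypes, are given at 250 bases. They lie at chr9:7691840-7692089 for Mmp7, chr14:54431348-54431597 for Mmp14 and chrX:20869916-20870165 for Timp1. Capitals mark matches on either strand to 4 motifs. The site of AP-1, a dimer of Fos and Jun proteins, was searched for as TGACTCA. The core of ETS factor sites was searched for as AGGAAG, and that of TCF and LEF factors as CTTTGAT. The box bound by the basal transcription machinery was searched for as TATAAA.
Mmp7: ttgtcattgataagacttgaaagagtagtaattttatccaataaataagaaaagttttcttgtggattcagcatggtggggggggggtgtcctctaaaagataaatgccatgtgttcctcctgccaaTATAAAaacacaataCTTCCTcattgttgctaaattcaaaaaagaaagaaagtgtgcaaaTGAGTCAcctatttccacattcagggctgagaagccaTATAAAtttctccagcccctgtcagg
Mmp14: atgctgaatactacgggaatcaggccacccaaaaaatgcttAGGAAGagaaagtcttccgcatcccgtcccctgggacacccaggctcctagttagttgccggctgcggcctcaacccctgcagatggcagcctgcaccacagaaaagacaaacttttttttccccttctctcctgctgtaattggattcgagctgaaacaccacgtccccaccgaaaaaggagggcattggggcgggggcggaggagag
Timp1: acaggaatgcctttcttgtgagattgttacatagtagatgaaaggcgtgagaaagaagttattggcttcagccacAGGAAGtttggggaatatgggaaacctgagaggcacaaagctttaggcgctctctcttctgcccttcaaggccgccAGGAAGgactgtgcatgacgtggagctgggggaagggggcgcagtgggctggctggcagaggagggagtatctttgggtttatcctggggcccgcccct
Shorter stretches, the last 100 bases before the start of Mmp3 (chr9:7445722-7445821) and Mmp10 (chr9:7502242-7502341), were added after the values were seen, to set these stromelysins beside Mmp7.
Mmp3: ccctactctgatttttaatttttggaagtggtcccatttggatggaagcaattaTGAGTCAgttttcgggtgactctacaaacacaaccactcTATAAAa
Mmp10: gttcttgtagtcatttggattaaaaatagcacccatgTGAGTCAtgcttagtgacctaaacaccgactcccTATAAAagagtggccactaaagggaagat
The Mmp7 and Mmp10 windows both hold TGAGTCA, the reverse complement of TGACTCA, 63 to 57 bases before the start, and the Mmp3 window holds it 46 to 40 bases before the start. A TATAAA match lies 26 to 21 bases before the start in Mmp7, 29 to 24 bases before it in Mmp10 and 7 to 2 bases before it in Mmp3. The windows of Mmp14 and Timp1 hold ETS cores (209 to 204 bases before the start in Mmp14, 175 to 170 and 99 to 94 in Timp1) and none of the other motifs. Matches also lay in bases not shown. Timp3, which fell in both genotypes, had an ETS core (204 to 199), as did Mmp3 (183 to 178). Mmp12, which passed in neither genotype, had an ETS core (87 to 82) in window 1 and TGAGTCA (44 to 38) in window 2. A second Mmp7 window held an ETS core (142 to 137) and ATCAAAG, the reverse complement of CTTTGAT (247 to 241). Among 32851 RefSeq windows of 250 bases, TGACTCA was found in 4.46%, AGGAAG in 29.5%, CTTTGAT in 3.21% and TATAAA in 12.4%. At the matched positions of these windows no motif overlapped another. A match describes the letters only, and no binding was measured.

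The first question was how cisplatin kidneys differed from PBS kidneys in these genes. Levels are given as CPM, counts scaled to 1e6 per library, and differences as log2 fold changes with their standard error (SE). In WT, 5 of the 8 tested genes rose (Mmp2, Mmp3, Mmp7, Mmp14 and Timp1), 2 fell (Timp3 and Mmp9) and Mmp12 did not pass the threshold (edgeR quasi-likelihood test, adjusted p under 0.05). In HET, 4 rose (Mmp2, Mmp7, Mmp14 and Timp1), Timp3 fell and 3 did not pass. These shares stand against a broad response: 33.6% of all tested genes were called higher and 29.6% lower in WT, and 31% higher and 28% lower in HET. The median log2 fold change of the 8 genes was 1.73 in WT and 1.10 in HET, against 0.06 for all tested genes in both. For the other 13 tested MMP and TIMP genes it was 0.26 in WT and 0.32 in HET. The 9 genes were listed with earlier results known, so their median does not stand for the family. With library totals in place of TMM scaling the median gene moved up by 0.39 in WT and 0.40 in HET. The split was then 61.4% higher and 14.9% lower over all genes in WT (62.2% and 12.5% in HET), and 6 higher and 1 lower among the 8 genes in WT.

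**Figure D1:**
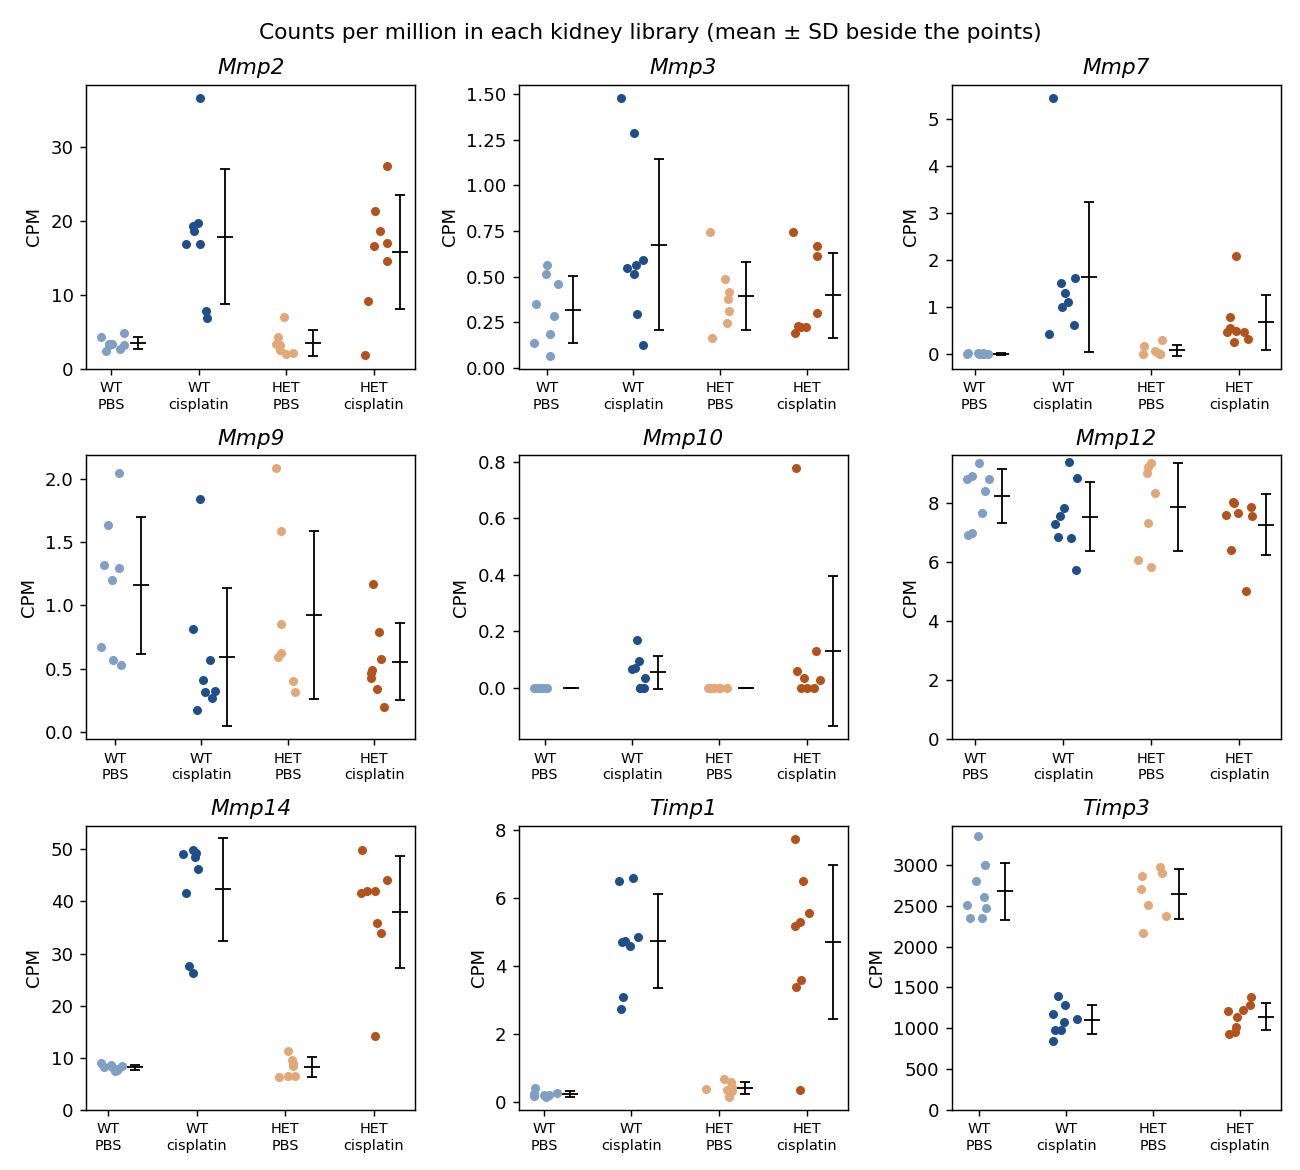
CPM (counts scaled to 1e6 per library, linear axes that differ between panels) of the 9 genes in each of 31 libraries, with the mean and SD of each group beside its points. Mmp14 in cisplatin kidneys lay above every PBS kidney, and Timp3 below every PBS kidney, in both genotypes.

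Mmp14 and Mmp2 form an activation pair. Mmp14 encodes a membrane-anchored collagenase (MT1-MMP) that activates proMMP2, and Mmp2 encodes gelatinase A, which cleaves denatured collagen and type IV collagen. Mmp14 (ENSMUSG00000000957, chr14:54431612-54445364 of GRCm38) was measured at 7.38 to 8.955 CPM in WT PBS, with a median of 8.195, and at 26.3 to 49.8 CPM in WT cisplatin, with a median of 47.45. In HET the range was 6.38 to 11.3 CPM under PBS (median 8.48) and 14.1 to 49.9 CPM under cisplatin (median 41.8). The groups did not overlap in either genotype, and HET cisplatin 6 was the lowest cisplatin library. All cisplatin libraries lay above all PBS libraries in 14.4% of tested genes in WT and in 11% in HET. In WT the mean was 8.15 ± 0.525 CPM under PBS and 42.3 ± 9.88 CPM under cisplatin (SD, n = 8 and 8), a rise with a log2 fold change of 2.38 (SE 0.18, edgeR adjusted p = 8.65e-13). In HET it went from 8.215 ± 1.88 to 37.9 ± 10.8 CPM (SD, n = 7 and 8), a log2 fold change of 2.21 (SE 0.19, edgeR adjusted p = 1.62e-11). Both rises were over 4-fold.

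Mmp2 (ENSMUSG00000031740, chr8:92827291-92853420) was lower and more variable than its activator. In WT it was measured at 2.4 to 4.89 CPM under PBS (median 3.31) and 6.83 to 36.7 CPM under cisplatin (median 17.8). In HET the range was 2.01 to 6.96 CPM under PBS (median 3.24) and 1.89 to 27.4 CPM under cisplatin (median 16.8). WT cisplatin and PBS kidneys did not overlap, with WT cisplatin 1 the highest of all. In HET, 7 of 8 cisplatin kidneys lay above every PBS kidney, and HET cisplatin 6, at 1.89 CPM, lay below them all. The log2 fold change was 2.38 in WT (SE 0.35, edgeR adjusted p = 7.6e-07) and 2.17 in HET (SE 0.37, edgeR adjusted p = 7.91e-06).

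Across the 16 cisplatin kidneys, with the mean of each group subtracted, log2 CPM of Mmp2 and Mmp14 had a Pearson r of 0.956 and a Spearman rho of 0.744. Without HET cisplatin 6 and WT cisplatin 6, the 2 libraries farthest from the median of Mmp2, r was 0.838. These values are descriptions over libraries that also differ from each other in injury markers. Mmp14 was among the 3 genes with the highest r to Mmp2 of 15599 compared, after Setd7 (r = 0.968) and beside Pdpn (r = 0.956), the gene of podoplanin. For Mmp14 the 3 genes were Chrnb1 (r = 0.978), Vwa7 and Golm1 (r = 0.975 each). Neither list was computed again with libraries left out. Summed CPM of 11 fibroblast and myofibroblast markers ranged from 255.6 to 355 in WT PBS and from 373 to 634 in WT cisplatin, and from 269.6 to 385 and 258.5 to 737 in the HET groups. Of those markers, 6 rose in WT and 7 in HET, none fell, and the lowest HET cisplatin sum was that of HET cisplatin 6. Summed CPM of the 11 injured tubule markers ranged from 600.1 to 952 in PBS kidneys and from 2937 to 7525 in cisplatin kidneys. The part of fibroblasts or injured tubule cells in the Mmp2 and Mmp14 rises was not tested.

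**Figure D2:**
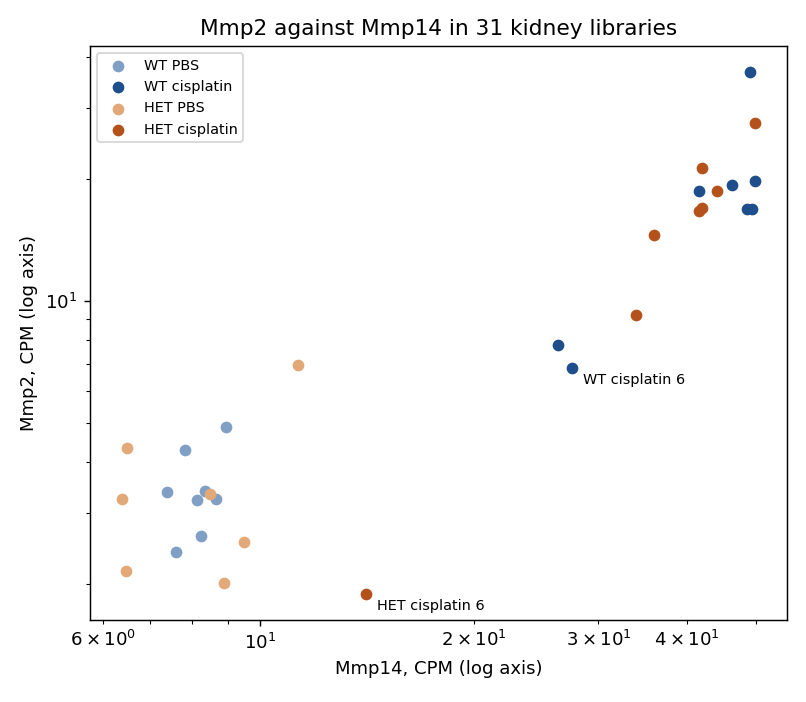
Mmp2 against Mmp14 in CPM, both on log axes, 1 point per library and 1 colour per group. PBS kidneys lie together at low values, most cisplatin kidneys lie high in both genes, and HET cisplatin 6 has PBS-like Mmp2 at 1.89 CPM with Mmp14 at 14.1 CPM.

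Mmp7, the gene of matrilysin, an enzyme of epithelial cells that cleaves matrix and cell-surface proteins, was close to silent in PBS kidneys. The gene (ENSMUSG00000018623, chr9:7692090-7699585) had 3 counts in all 8 WT PBS libraries together and 17 counts in 7 HET PBS libraries, of which 9 came from HET PBS 2. Under cisplatin every library held counts, 402 in all in WT and 181 in HET. The range was 0.443 to 5.46 CPM in WT cisplatin (median 1.21) and 0.269 to 2.08 CPM in HET cisplatin (median 0.493). WT cisplatin 1 and HET cisplatin 8 were the highest of their groups, and only HET PBS 2, at 0.304 CPM, overlapped a cisplatin kidney of its genotype.

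Scaled to library size, the ratio of summed Mmp7 counts was 128 in WT (95% counting interval 43.5 to 623.6) and 8.08 in HET (4.91 to 14.2). These intervals cover counting error only. The fitted log2 fold change was 6.61 in WT (SE 0.79, edgeR adjusted p = 1.2e-08), a value that depends on the prior count because PBS counts are so few. In HET it was 2.97 (SE 0.66, edgeR adjusted p = 0.000253), and 3.78 without HET PBS 2 (edgeR adjusted p = 5.97e-05). The 3 genes most like Mmp7 across the cisplatin kidneys were Slc35g1 (r = 0.872), Tuba8 (r = 0.832) and Fam57a (r = 0.822). These r values were not computed without WT cisplatin 1, which stood far above the others in Mmp7.

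Mmp3 and Mmp10 encode stromelysins 1 and 2, which cleave a broad range of matrix proteins and activate other proMMPs. Mmp3 (ENSMUSG00000043613, chr9:7445822-7455975) was measured at 0.0666 to 0.565 CPM in WT PBS (median 0.317) and 0.127 to 1.48 CPM in WT cisplatin (median 0.556). In HET it was measured at 0.167 to 0.744 CPM under PBS (median 0.38) and 0.189 to 0.746 CPM under cisplatin (median 0.266). The groups overlapped in both genotypes, and WT cisplatin 1 (1.48 CPM) and WT cisplatin 7 (1.29 CPM) were the highest libraries. The log2 fold change was 1.07 in WT (SE 0.42, edgeR adjusted p = 0.0274) and 0.02 in HET (SE 0.44, edgeR adjusted p = 0.974, 95% interval −0.84 to 0.88). The WT call was lost when WT cisplatin 1 (0.81, edgeR adjusted p = 0.0976), WT cisplatin 7 (0.88, 0.0775), WT PBS 2 (0.92, 0.057), WT PBS 4 (0.99, 0.0518) or WT PBS 6 (0.96, 0.0551) was left out. It was also lost in the animals numbered in the 600s alone (0.53, edgeR adjusted p = 0.415). Leaving out the 5 libraries that go against their label lost it as well (0.96, edgeR adjusted p = 0.0545).

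Mmp10 (ENSMUSG00000047562, chr9:7502352-7510240) had 0 counts in all 15 PBS libraries. Under cisplatin it had 13 counts in WT, in 5 of 8 libraries, and 33 counts in HET, also in 5 of 8 libraries. Of the 33, HET cisplatin 8 held 25 (0.777 CPM), and no other cisplatin library had more than 5. Against a floor of 3 counts over the PBS group, the observed level under cisplatin was at least 4.14-fold higher in WT and at least 8.35-fold higher in HET. These bounds leave out the counting error of the cisplatin counts and the spread between animals. Without HET cisplatin 8 the HET bound was 2.3, and without WT cisplatin 7, which held 5 counts, the WT bound was 2.9. A two-sided exact permutation test of log2 CPM gave p = 0.0256 in WT and p = 0.0256 in HET, each 0.0384 after adjustment over 3 tests. In HET the exact permutation p was 0.0669 to 0.0699 when any 1 PBS library, or any 1 of the 5 cisplatin libraries with a count (3, 4, 5, 7 or 8), was left out. The same exact permutation test of HET against WT under cisplatin gave p = 0.752.

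Mmp9 and Mmp12 are best known from leukocytes. Mmp9 encodes gelatinase B and Mmp12 encodes macrophage elastase. Mmp9 (ENSMUSG00000017737, chr2:164940780-164955850) was measured at 0.527 to 2.04 CPM in WT PBS (median 1.25) and 0.171 to 1.84 CPM in WT cisplatin (median 0.366). In HET the range was 0.317 to 2.08 CPM under PBS (median 0.625) and 0.192 to 1.17 CPM under cisplatin (median 0.477). All groups overlapped, and 5 of 8 WT cisplatin kidneys lay below every WT PBS kidney, while WT cisplatin 1 stood high at 1.84 CPM. The log2 fold change fell by 0.98 in WT (SE 0.43, edgeR adjusted p = 0.0485) and by 0.72 in HET, where it did not pass (SE 0.45, edgeR adjusted p = 0.169).

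The WT call of Mmp9 held in 18 of 45 alternative settings, and the adjusted p over them ranged from 0.00222 to 0.373. It was lost when any 1 of these libraries was left out: WT cisplatin 2, 3, 4, 5, 6 or 8, WT PBS 2, 4, 5, 6 or 8, HET cisplatin 1, 2, 3, 5, 7 or 8, or HET PBS 1, 4 or 7. On the authors' TPM scale (transcripts scaled to 1e6 per library) its mean was 0.271 in WT PBS and 0.219 in WT cisplatin, and 0.217 in HET PBS and 0.255 in HET cisplatin, so the HET direction turned with the scale. Of 11 neutrophil marker genes, 6 were tested, and 0 rose in either genotype. None of the 6 fell in WT (edgeR, 2 at an unadjusted p under 0.05), and 5 fell in HET. Their summed CPM, over all 11, ranged from 3.2 to 19.4 in WT PBS, 4.25 to 8.86 in WT cisplatin, 3.64 to 23.8 in HET PBS and 3.86 to 6.81 in HET cisplatin. Of the 11 genes, 8 had a count in each PBS group, 9 in WT cisplatin and 11 in HET cisplatin. Those at 0 were Mpo, Elane and Camp in both PBS groups, and Mpo and Camp in WT cisplatin. The part of neutrophils or macrophages in the Mmp9 values was not tested.

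Mmp12 (ENSMUSG00000049723, chr9:7344381-7369499) was measured at 6.92 to 9.36 CPM in WT PBS (median 8.62) and 5.73 to 9.41 CPM in WT cisplatin (median 7.44). In HET it was 5.83 to 9.365 CPM under PBS (median 8.35) and 5.04 to 8.04 CPM under cisplatin (median 7.64). The groups overlapped throughout. The log2 difference was −0.13 in WT (95% interval −0.35 to 0.09, edgeR adjusted p = 0.334) and −0.11 in HET (−0.34 to 0.11, edgeR adjusted p = 0.413). With library totals both signs turned, to 0.27 in WT (edgeR adjusted p = 0.0491) and 0.29 in HET (edgeR adjusted p = 0.0405). Of 12 macrophage markers, 10 were called higher and 1 lower in WT, against 9 and 1 in HET. Their summed CPM ranged from 108.6 to 128.6 in WT PBS and 151.7 to 355 in WT cisplatin, and from 108.4 to 145 and 53.5 to 253 in the HET groups. The lowest of these sums was that of HET cisplatin 6 and the highest that of WT cisplatin 1.

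The inhibitors moved in opposite directions. Timp1, a secreted inhibitor that is inducible in injured tissue, rose, and Timp3, an inhibitor that stays bound to the matrix and also acts on ADAM proteases, fell. Timp1 (ENSMUSG00000001131, chrX:20870166-20874735) was measured at 0.157 to 0.421 CPM in WT PBS (median 0.233) and 2.74 to 6.6 CPM in WT cisplatin (median 4.73). In HET it was 0.158 to 0.694 CPM under PBS (median 0.394) and 0.352 to 7.74 CPM under cisplatin (median 5.25). WT groups were separate, and in HET only HET cisplatin 6, at 0.352 CPM, fell within the PBS range. The log2 fold change was 4.26 in WT (SE 0.38, edgeR adjusted p = 4.05e-11) and 3.47 in HET (SE 0.38, edgeR adjusted p = 2.65e-09), or 3.65 in HET without WT cisplatin 6 and HET cisplatin 6. Adgra1 (r = 0.971), Gm23444 and Gm23472 (r = 0.97 each) were most like Timp1 across the cisplatin kidneys. These r values were not computed without HET cisplatin 6, which lay far below the other cisplatin kidneys in Timp1. The r of Timp1 with Mmp2 was 0.851, and 0.448 without HET cisplatin 6 and WT cisplatin 6. With Mmp14 the r of Timp1 was 0.896. It was 0.575 without HET cisplatin 6 and WT cisplatin 3, the pair of libraries farthest from the median of Mmp14.

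Timp3 (ENSMUSG00000020044, chr10:86300372-86349506) was by far the most abundant of the 9 genes. It was measured at 2348 to 3352 CPM in WT PBS (median 2555) and 847.8 to 1395 CPM in WT cisplatin (median 1098). In HET the range was 2160 to 2979 CPM under PBS (median 2706) and 929.9 to 1381 CPM under cisplatin (median 1176). Every cisplatin kidney lay below every PBS kidney in both genotypes, which was so for 17.4% of tested genes in WT and 14.9% in HET. The log2 fold change fell by 1.28 in WT (SE 0.10, edgeR adjusted p = 2.27e-12) and by 1.21 in HET (SE 0.10, edgeR adjusted p = 1.73e-11). Syn3, which encodes a synapsin, overlaps Timp3 on the opposite strand and shares 1733 exonic bases with it. Without a stated strand setting, reads from the shared bases cannot be told apart. Syn3 was measured at 12.2 CPM in WT PBS and 5.62 CPM in WT cisplatin, and at 12.5 and 5.59 CPM in the HET groups, far below Timp3. Syn1 overlaps Timp1 with 0 shared exonic bases, AV064505 (0 counts) overlaps Mmp7, and Mmp1b (1 count) overlaps Mmp12.

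**Figure D3:**
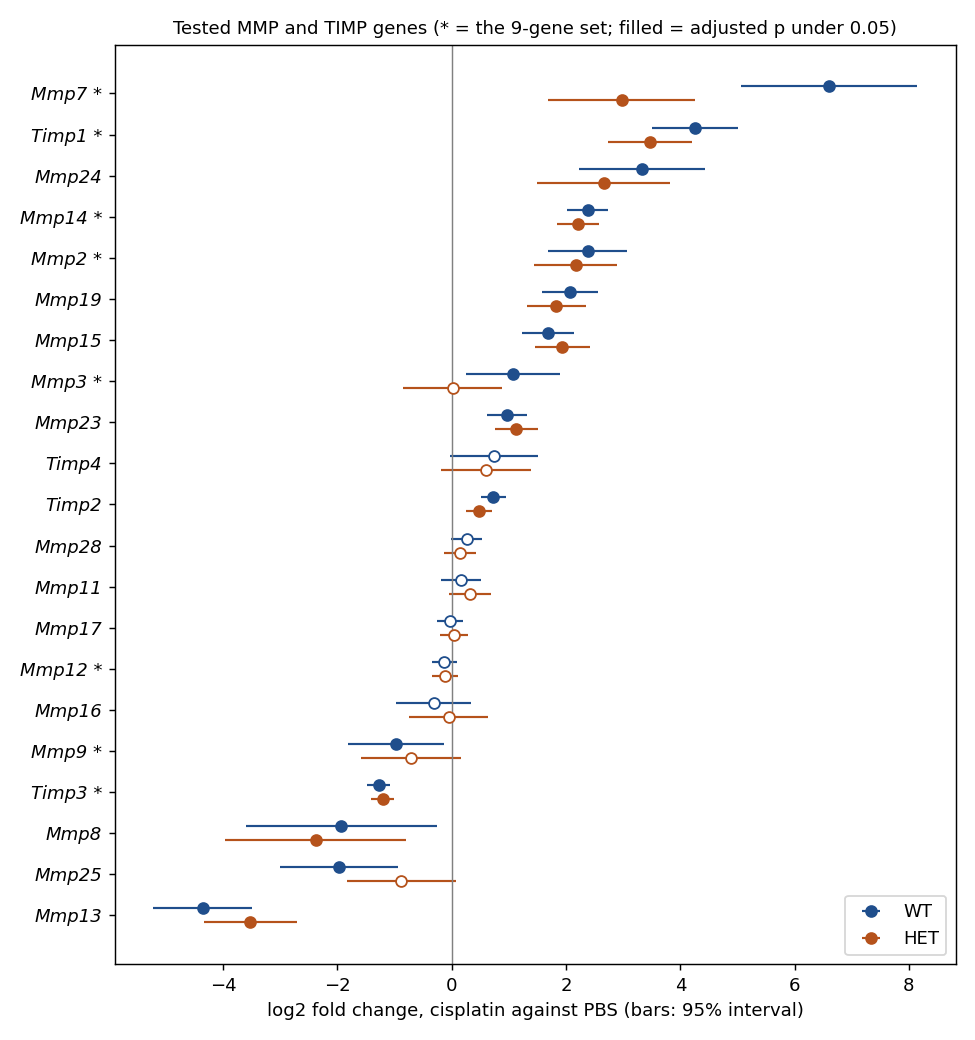
Log2 fold change of cisplatin against PBS (x axis) for the 21 tested MMP and TIMP genes, in WT and HET, with 95% intervals and filled points for an adjusted p under 0.05; asterisks mark the 9-gene set. Mmp7, Timp1, Mmp24, Mmp14 and Mmp2 lie farthest right and Mmp13 farthest left in WT.

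Of all 27 MMP and TIMP genes in the table, 21 were tested: 10 rose, 5 fell and 6 did not pass in WT (15 rose and 3 fell with library totals), and 9 rose, 3 fell and 9 did not pass in HET. With TMM scaling the shares over all tested genes were 33.6% higher and 29.6% lower in WT, and 31% and 28% in HET. With library totals the WT shares were 61.4% higher and 14.9% lower. Outside the 9 genes, the membrane-type enzymes Mmp15 (log2 fold change 1.69 in WT, 1.94 in HET) and Mmp24 (3.33 and 2.66) rose in both genotypes. So did Mmp19 (2.07 and 1.83), Mmp23 (0.97 and 1.13) and Timp2 (0.73 and 0.48), the inhibitor that links proMMP2 to Mmp14 protein at the cell surface. Mmp24 rested on 8 counts in all WT PBS libraries together, and its value was 4.02 without WT PBS 2. Timp2 was measured at 46.8 ± 3.3 CPM in WT PBS and 77.4 ± 15.3 CPM in WT cisplatin (SD, n = 8 and 8), and at 47.2 ± 4.73 and 66.02 ± 12.2 CPM in HET (SD, n = 7 and 8).

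Mmp13, the main interstitial collagenase of rodents, had the largest fall of the tested family genes in both genotypes. It was measured at 0.615 to 3.43 CPM in WT PBS and 0 to 0.208 CPM in WT cisplatin, and at 1.04 to 3.31 and 0 to 0.325 CPM in the HET groups, with no overlap in either. Its log2 fold change fell by 4.36 in WT (SE 0.44, edgeR adjusted p = 5.22e-10) and by 3.52 in HET (SE 0.42, edgeR adjusted p = 1.47e-08). Mmp25, a membrane-type enzyme of leukocytes, fell by 1.97 in WT (edgeR adjusted p = 0.00169) and was at −0.88 in HET (edgeR adjusted p = 0.119), or −1.29 without HET cisplatin 6 (edgeR adjusted p = 0.0223). Mmp8, the neutrophil collagenase, fell by 1.93 in WT (edgeR adjusted p = 0.0496) and by 2.38 in HET (edgeR adjusted p = 0.0119). Mmp8 had 0 counts in some libraries of every group, and its HET value was −1.78 (edgeR adjusted p = 0.0658) without HET PBS 1. In WT the Mmp8 call was lost in 31 of 43 settings and kept in 10 of 31 fits with 1 library left out.

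A cluster of 10 MMP genes lies within 427.1 kb of chromosome 9 (7272514 to 7699585), in the order Mmp13, Mmp12, Mmp1b, Mmp3, Mmp1a, Mmp10, Mmp8, Mmp27, Mmp20 and Mmp7. The 10 genes did not all move in the same direction. Mmp13 at one end fell, Mmp7 at the other end rose, and Mmp12, next to Mmp13, did not pass in either genotype. Mmp20 and Mmp27, which lie beside Mmp7, were under the filter and not tested. Like Mmp7 they had more counts under cisplatin. Mmp20 and Mmp27 gave 25 and 32 counts in WT cisplatin against 0 and 5 in WT PBS. In HET they gave 44 and 33 counts under cisplatin against 5 and 3 under PBS. Mmp1a had 0 counts in all libraries.

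**Figure D4:**
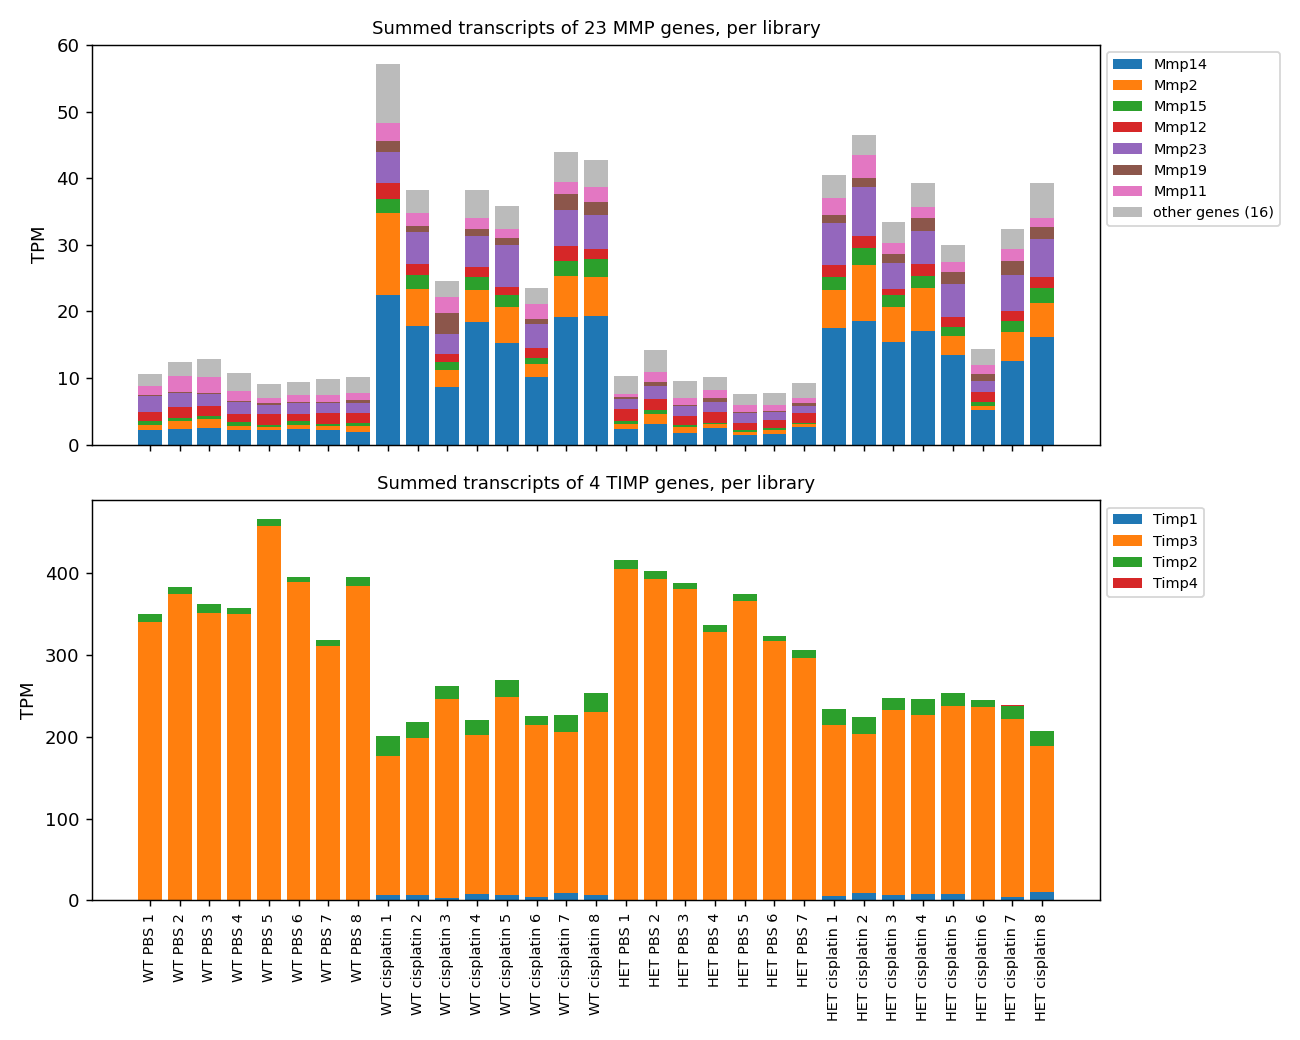
Summed TPM of 23 MMP genes (upper panel) and 4 TIMP genes (lower panel) in each library, stacked by gene. MMP sums are higher and TIMP sums lower in the cisplatin kidneys, with HET cisplatin 6 at 14.3 TPM the lowest MMP sum among them.

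TPM divides by transcript length and so allows levels of different genes to be compared. In WT PBS kidneys the order was Timp3 (370 ± 44 TPM), Mmp14 (2.25 ± 0.183), Mmp12 (1.49 ± 0.218), Mmp2 (0.809 ± 0.29), Mmp9 (0.271 ± 0.0832), Timp1 (0.2375 ± 0.0734), Mmp3 (0.124 ± 0.0684), Mmp7 (0.00875 ± 0.0125) and Mmp10 (listed at 0; SD, n = 8). Mmp9 and Timp1 were closer to each other than their spread. In WT cisplatin kidneys the order was Timp3 (209 ± 26.1 TPM), Mmp14 (16.4 ± 4.77), Timp1 (6.29 ± 1.96), Mmp2 (5.6 ± 3.14), Mmp12 (1.65 ± 0.454), Mmp7 (1.65 ± 1.67), Mmp3 (0.36 ± 0.262), Mmp9 (0.219 ± 0.181) and Mmp10 (0.0313 ± 0.0344; SD, n = 8). There, Timp1 and Mmp2, Mmp12 and Mmp7, and Mmp3 and Mmp9 lay within their spread of each other. HET PBS kidneys had Timp3 at 355 ± 41.7, Mmp14 at 2.21 ± 0.607, Mmp12 at 1.44 ± 0.315, Mmp2 at 0.754 ± 0.397 and Timp1 at 0.411 ± 0.181 TPM (SD, n = 7). HET cisplatin kidneys had Timp3 at 214 ± 19.6, Mmp14 at 14.5 ± 4.24, Timp1 at 6.37 ± 3.09, Mmp2 at 4.82 ± 2.39 and Mmp12 at 1.56 ± 0.285 TPM (SD, n = 8).

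The summed MMP transcripts were 10.6 ± 1.38 TPM in WT PBS and 38.1 ± 10.8 TPM in WT cisplatin (SD, n = 8 and 8), and 9.85 ± 2.23 and 34.5 ± 9.72 TPM in HET (SD, n = 7 and 8). Summed TIMP transcripts were 378.9 ± 43.7 and 234.8 ± 24 TPM in WT, and 364 ± 42.2 and 237 ± 15 TPM in HET. Neither sum overlapped between PBS and cisplatin kidneys, with the highest PBS MMP sum at 14.29 TPM in HET and the lowest HET cisplatin sum at 14.32 TPM. TPM are scaled to the total of each library and not by TMM. In the counts, library totals in place of TMM moved the median gene up by 0.39 (WT) and 0.40 (HET) on the log2 scale. Rises in TPM are thus larger, and falls smaller, than with TMM. Timp3 made up 97.6% of TIMP transcripts in WT PBS and 88.9% in WT cisplatin, and 97.5% and 90% in HET. TIMP transcripts per MMP transcript numbered 36.3 ± 7.65 in WT PBS, 6.73 ± 2.39 in WT cisplatin, 38 ± 6.97 in HET PBS and 7.81 ± 3.95 in HET cisplatin. Transcripts of the inhibitors thus stayed in excess in every library, the lowest ratio being 3.52.

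The next question was whether the HET genotype went with other levels. None of the 8 tested genes was called different between HET and WT under PBS or under cisplatin, and none had a different cisplatin response (interaction) at the threshold of edgeR. Over all tested genes 0 (0%) were called under PBS, 1 (0.00519%) under cisplatin and 0 (0%) for the interaction. At an unadjusted p under 0.05 there were 968, 1066 and 1079 genes, and DESeq2 called 5 genes under PBS. Mmp7 was the 1 gene of the 8 with an unadjusted p under 0.05 in each of the 3 contrasts. Its HET minus WT log2 difference was 2.38 under PBS (SE 1.13, edgeR adjusted p = 0.971) and −1.25 under cisplatin (SE 0.47, edgeR adjusted p = 0.874), and the interaction was −3.63 (SE 1.23, edgeR adjusted p = 0.725). The PBS value rests on 17 counts in HET against 3 in WT, 9 of them from HET PBS 2. Without that library the interaction was −2.83 (edgeR adjusted p = 0.849).

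The other genes had these intervals for HET against WT under cisplatin on the log2 scale. Mmp14 was at −0.16 (95% interval −0.48 to 0.17), Mmp2 at −0.17 (−0.81 to 0.47) and Timp3 at 0.05 (−0.15 to 0.24). Timp1 was at −0.01 (−0.58 to 0.56), Mmp3 at −0.75 (−1.55 to 0.05), Mmp9 at −0.07 (−0.94 to 0.80) and Mmp12 at −0.05 (−0.27 to 0.17). The intervals of Mmp14, Timp3 and Mmp12 are narrower than those of the low-count genes Mmp3 and Mmp9. Interaction values of the genes other than Mmp7 lay between −1.05 (Mmp3) and 0.26 (Mmp9), with edgeR adjusted p from 0.939 to 0.999.

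Genes that act around the MMPs were followed through lists. Their counts stand beside 33.6% higher and 29.6% lower over all tested genes in WT, and 31% and 28% in HET. Among proteases and inhibitors of the plasminogen system and of MMP activation, 6 of 13 rose, 6 fell and 1 did not pass, in each genotype. St14, the gene of matriptase, a membrane serine protease, rose by a log2 fold change of 1.52 in WT and 1.48 in HET, and Serpine2, an inhibitor of plasminogen activators and thrombin, by 3.30 and 3.33. Serpinf2, the plasmin inhibitor alpha-2-antiplasmin, fell by 4.79 in WT and 4.62 in HET, from 294.6 ± 15.6 to 10.7 ± 9.19 CPM in WT (SD, n = 8 and 8). Bsg, the gene of basigin, a surface protein known to induce MMPs, fell by 0.66 and 0.62. Of 14 ADAM and ADAMTS genes, WT kidneys had 7 that rose and 2 that fell, and HET kidneys 10 and 3. Adamts4, an aggrecanase, rose by 2.62 and 2.81, Adam8 by 2.82 and 2.60, and Adamts2, which trims procollagen, by 0.97 and 0.92. Adam9 fell by 0.39 and 0.46, but with library totals it was at 0.008 in WT and −0.054 in HET (edgeR adjusted p = 0.359).

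Of 19 tested substrates of these enzymes, WT kidneys had 14 that rose and 2 that fell, and HET kidneys 12 and 2. The shares over all tested genes were again 33.6% higher and 29.6% lower in WT, and 31% and 28% in HET. Spp1, the gene of osteopontin, which MMPs cleave, went from 428 ± 49.5 CPM under PBS to 4975 ± 473 CPM under cisplatin in WT (SD, n = 8 and 8), a log2 fold change of 3.54, and by 3.11 in HET. Sdc1, the gene of the shed surface proteoglycan syndecan-1, rose by 2.475 in WT and 2.40 in HET, and Lama5, a laminin chain of basement membranes, by 1.43 and 1.37. Col4a3, a chain of mature basement membrane collagen, fell by 1.15 in WT and 1.38 in HET. Of 15 AP-1 and ETS factors, the families whose motifs were searched for above, 8 rose, 1 fell and 6 did not pass in each genotype. Fosl1, an AP-1 partner of Jun proteins, went from 0.3275 ± 0.64 CPM under PBS to 14.8 ± 7.99 CPM under cisplatin in WT (SD, n = 8 and 8), a log2 fold change of 5.49 (7.01 without WT PBS 5), and by 6.09 in HET. Among ETS factors Etv4 rose by 3.35 in WT and 2.75 in HET and Ehf by 1.33 and 1.09, while Etv5 fell by 1.07 and 1.06. The genes named from these lists are the 4 of each with the smallest edgeR p in the WT contrast. Every one had an edgeR adjusted p under 0.05 in both genotypes, which in WT follows from that choice.

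Within the animals numbered in the 600s, the log2 fold changes in WT were 2.35 for Mmp14, 2.35 for Mmp2, 4.33 for Timp1, 5.67 for Mmp7 and −1.30 for Timp3. In HET they were 2.28, 2.67, 3.34, 3.62 and −1.135, in the same order, and all 10 values passed the edgeR threshold. Leaving out the 5 libraries whose Nbl1 and Htr6 reads contradict the label gave HET values of 2.09 for Mmp14, 2.003 for Mmp2, 3.46 for Timp1, 2.61 for Mmp7 and −1.23 for Timp3, and every value stayed past the threshold.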

How the data were processed

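Kidney mRNA libraries of 31 mice were compared in 4 groups. The authors deposited expected counts per gene, not normalized, of which 12.52% are not whole numbers, so counts were rounded before testing. TPM values deposited by the authors were used to compare levels between genes and to sum MMP and TIMP transcripts in each group. They also served for alternative tests of the group differences. The deposited FPKM values were not used. The kit was KAPA mRNA HyperPrep, per the labels' protocols. Read trimming and mapping used fastp, STAR and featureCounts with GRCm38 and mm10, per the submitters' processing notes, and the sources used here do not give the strand setting.

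One model with 4 group means was fitted to all libraries with edgeR 4.0.16 (quasi-likelihood F test, TMM, filterByExpr by group) in R 4.3.3, with Benjamini-Hochberg adjustment over 19268 genes and a threshold of 0.05. SE is the log2 fold change divided by the square root of F. CPM were computed with TMM, and log2 CPM used a prior count of 2. Fold changes used a prior count of 0.125. Mmp10, under the filter, was tested by exact permutation. The edgeR p-values set a group difference against the spread between animals, estimated over all 4 groups. The permutation p-values use only the groups compared. Coordinates come from GENCODE M21 (GRCm38), and the fit was tested on simulated data.

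Named genes are the 9 members, other family genes past the threshold, the 4 genes of each list with the smallest p in the WT contrast, genes overlapping a member, and the 3 genes most like a member over the 16 cisplatin libraries. Members and lists were chosen with earlier results of these data known. Alternatives were DESeq2 1.42.0, limma 3.58.1 (voom with quality weights, and log2(TPM + 1) or log2(TPM + 0.1)), RLE scaling, library totals, other low-count filters, the compared groups alone, covariates for animal number range or library number, the animals numbered in the 600s alone, and each library left out in turn. Leaving out WT cisplatin 6 with HET cisplatin 6, and leaving out the 5 libraries that go against their label, were alternatives chosen after seeing the data.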

Additional observations from a re-analysis of the deposited data

Results flagged for a closer look

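A kidney was noted where it stood far from the others of its group, that is, where its gap to the nearest library was large against the range of the group. Of 66 combinations of gene and group examined, 10 met this rule. Its cut-offs give about 1 in 20 for normally distributed values. Several of these genes have low, skewed counts, and the same libraries recur across genes. How many flags chance would give here is therefore not known. WT cisplatin 1 was the highest of its group in Mmp2 (36.71 CPM, next 19.8), Mmp7 (5.461 CPM, next 1.634) and Mmp9 (1.842 CPM, next 0.8128). It also held the highest summed macrophage markers, at 355 CPM. HET cisplatin 8 was the highest of its group in Mmp7 (2.084 CPM, next 0.8006) and in Mmp10 (0.7774 CPM, next 0.1281).

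HET cisplatin 6, the cisplatin library nearest to the PBS kidneys on the first principal component, was the lowest of its group in Mmp14 (14.09 CPM, next 33.87) and Mmp23 (1.761 CPM, next 4.738). The same library was the highest of its group in Mmp25 (0.6405 CPM, next 0.2688), a gene that was higher in the PBS groups. WT cisplatin 3 was the highest of its group in Mmp19 (9.447 CPM, next 5.832), and WT PBS 1 was the highest in Timp1 (0.4211 CPM, from 12 counts, next 0.2819).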

How the results depend on the processing

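Mmp14, Mmp2, Timp1, Mmp7 and Timp3 kept their direction and their call in 45 of 45 settings in both genotypes. Log2 fold changes there ranged from 2.34 to 2.78 (WT) and 2.09 to 2.63 (HET) for Mmp14, and from −1.33 to −0.82 and −1.27 to −0.73 for Timp3. Mmp7 ranged most widely, down to 1.22 and 0.61 on the log2(TPM + 1) scale, which understates changes of low genes.

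In WT the number of members called lower, 2 (Timp3 and Mmp9), was 1 with library totals, no low-count filter, the compared groups alone, limma on log2(TPM + 1), limma on log2(TPM + 0.1), without WT cisplatin 6 and HET cisplatin 6, and without the 5 libraries that go against their label. It was 1 to 2 with each library left out in turn. In HET it was 2 in place of 1 without those 5 libraries, where Mmp9 fell by 1.32 (edgeR adjusted p = 0.0392). With library totals 14 family genes rose in HET in place of 9, beside 62.2% of all tested genes in place of 31%.

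Signs turned for genes near 0. Mmp12 was at 0.27 (WT) and 0.293 (HET) with library totals, 0.078 and 0.068 with limma on log2(TPM + 1), and 0.114 and 0.11 on log2(TPM + 0.1). Adam9 in WT was at 0.008, 0.045 and 0.047 under those 3 settings, and in HET at −0.054 with library totals (not past the threshold) and 0.007 on both log2 TPM scales. Mmp9 in HET was at 0.212 in the animals numbered in the 600s alone, 0.048 on log2(TPM + 1) and 0.238 on log2(TPM + 0.1). Mmp3 in HET ranged from −0.165 to 0.25 with each library left out (below 0 without HET cisplatin 3, 4 or 8, or HET PBS 1, 6 or 7) and was −0.557 without the 5 libraries. The causes were not tested.

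No member passed the threshold in a genotype contrast under any setting. DESeq2 called 5 genes of the whole table for HET against WT under PBS, and limma voom 2 under cisplatin. No paired analysis was possible because the labels carry no replicate numbers shared between groups. Depth limits Mmp3, Mmp7, Mmp9 and Mmp10 most: their counts per library ranged from 0 to 166.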
